A study of Homo sapiens with 4 samples.

Results

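MALAT1 (ENSG00000251562.3) and NEAT1 (ENSG00000245532.3) are long non-coding RNAs that stay in the nucleus, and the peaks listed for them in a ZFR eCLIP experiment are described here. Every line of the 4 deposited peak lists whose gene identifier was one of these was taken, which gave 397 of 595484 peaks, 153 in MALAT1 and 244 in NEAT1, and 2 of 17764 gene identifiers. The genes were chosen by name with their peak numbers and reads in these libraries already known, so their eCLIP and input values are a description and carry no test. Enhanced crosslinking and immunoprecipitation (eCLIP) sequences pieces of RNA that were crosslinked by ultraviolet light to a protein and pulled down with it. The protein was FLAG-tagged ZFR, which binds RNA through zinc fingers and has a DZF domain. A size-matched input comes from the same kind of lysate and gel region without the immunoprecipitation.

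All 4 libraries came from Flp-In T-REx-293 cells, a human embryonic kidney line with a single integration site, in which FLAG-ZFR had been placed at the FRT site. The cells were polyclonal, doxycycline at 1 µg/mL switched the transgene on over 48 to 72 h, and the crosslinking dose was 400 mJ/cm2. The groups were 2 eCLIP libraries and 2 inputs, numbered 1 and 2 (called eCLIP 1, eCLIP 2, input 1 and input 2). The inputs carried the same transgene and treatment as the eCLIP libraries, and no library without the tagged protein was analysed here. No label states that the libraries of a group were separate cultures, so the spread between them may be technical. The 4 lists differ widely in length: eCLIP 1 stands apart with 479308 peaks, against 11204 to 63068 in the others. The reads in peaks ran from 102084 in input 2 to 3075352 in eCLIP 1. The depth of the libraries is unknown, since the lists hold called peaks alone.

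MALAT1 is among the most abundant nuclear RNAs of human cells and gathers at nuclear speckles, bodies rich in splicing factors. Its 3′ end is not polyadenylated in the usual way: RNase P cuts it, a triple helix protects the end, and a small tRNA-like RNA is released. NEAT1 is the scaffold of paraspeckles, bodies that form around it together with RNA-binding proteins. It is made as a short and a long isoform that share their 5′ end, and the long one is needed to build the paraspeckle. The genes lie near each other on chromosome 11 and are transcribed from the same strand.

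In hg19 coordinates, counted from 1, the MALAT1 peaks ran from 65266524 to 65273451 on the plus strand of chromosome 11, a span of 6928 bases. The NEAT1 peaks ran from 65190270 to 65212935 on the same strand, a span of 22666 bases. These spans are those of the peaks over the 4 libraries and not annotated gene ends, and positions along each RNA are measured within them. No library listed a minus-strand peak inside either span. The lists hold only called peaks under gene identifiers, so signal on the other strand was not tested. The gene model, the isoform ends and the sequence under the peaks were not analysed here.

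On average over the libraries MALAT1 and NEAT1 took a smaller share of peaks in eCLIP than in input, with overlapping groups, and their peaks were deeper relative to the rest of the library. eCLIP 1 listed 74 MALAT1 peaks, eCLIP 2 listed 26, input 1 listed 28 and input 2 listed 25. As shares these were 1.54 per 10000 peaks of the library in eCLIP 1 (Wilson 95% interval 1.23 to 1.94) and 6.20 in eCLIP 2 (4.23 to 9.09). In the inputs they were 4.44 (3.07 to 6.42) and 22.3 (15.1 to 32.9). Intervals here cover counting error only. The groups overlapped, because eCLIP 2 lay above input 1.

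NEAT1, the longer gene, held 136 peaks in eCLIP 1, 38 in eCLIP 2, 50 in input 1 and 20 in input 2. Its shares were 2.84 (2.40 to 3.36) and 9.07 (6.61 to 12.4) per 10000 in the eCLIP libraries and 7.93 (6.01 to 10.4) and 17.9 (11.6 to 27.6) in the inputs. Again eCLIP 2 lay above input 1, and the order of the 4 libraries was the same for both RNAs. From lowest to highest it ran eCLIP 1, input 1, eCLIP 2, input 2, the reverse of the list lengths (479308, 63068, 41904 and 11204 peaks). Each share is divided by that length, and the part of length in the order was not tested. On the scale log2(share + 0.5) eCLIP minus input was -1.52 for MALAT1 (SE 0.97) and -1.14 for NEAT1 (SE 0.98) in a limma fit over 8914 genes, with n = 2 libraries a group. The group means for MALAT1 were 1.89 ± 1.21 (SD) in eCLIP and 3.41 ± 1.56 in the input. For NEAT1 they were 2.50 ± 1.07 and 3.64 ± 0.79. The median gene stood at 0.16. In 10.2% of the genes both eCLIP shares lay below both input shares, and neither RNA was among these. With peaks of p at most 0.001 alone, both eCLIP shares of MALAT1 (6.64 and 28.4) lay below both inputs (30.3 and 59.1), as in 9% of 3334 genes, while 31.8% had both above. With touching peaks merged, both eCLIP shares of NEAT1 (2.58 and 8.99) lay below both inputs (10.3 and 18.3), as in 10.2% of 8754 genes, while 21.8% had both above. limma called 0 genes higher (0%) and 0 lower (0%) after Benjamini-Hochberg adjustment at 0.05, with 112 higher and 62 lower at an unadjusted p under 0.05.

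The lower share of peaks did not carry over to the share of reads. The whole number that ends each peak's name, read here as the reads in the peak, summed to 9795 for MALAT1 in eCLIP 1, 567 in eCLIP 2, 418 in input 1 and 309 in input 2. Per 10000 reads in peaks these were 31.9, 24.7, 16.8 and 30.3, so eCLIP 1 and input 2 were close and eCLIP 2 lay between the inputs. NEAT1 had 8046, 407, 248 and 272 reads, or 26.2, 17.7, 9.95 and 26.6 per 10000. For both RNAs input 1 was the lowest library and the groups overlapped. Both eCLIP read shares lay above both inputs in 25% of the 8914 genes and below both in 9.08%. On the log2 scale eCLIP minus input was 0.31 (SE 0.84) for MALAT1 and 0.39 (SE 0.85) for NEAT1, which is the opposite sign to the peak shares. With each list limited to its 11204 peaks of lowest deposited p, the sign of the peak share also turned, to 0.77 (SE 0.89) for MALAT1 and 1.61 (SE 0.96) for NEAT1. All 74 MALAT1 peaks of eCLIP 1 were among those 11204, as were 101 of its 136 NEAT1 peaks. In these lists MALAT1 held 66.0, 23.2, 23.2 and 22.3 per 10000 peaks in eCLIP 1, eCLIP 2, input 1 and input 2, and NEAT1 held 90.1, 22.3, 11.6 and 17.9. Both eCLIP shares of NEAT1 then lay above both inputs, as in 32.8% of the 959 genes that could be compared, while 7.51% had both below. MALAT1 and NEAT1 thus had no single direction between eCLIP and input: it followed the way peaks were counted.

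Within each list both genes ranked high by reads. MALAT1 had the 6th highest sum of reads in peaks among 15839 genes in eCLIP 1, the 18th in eCLIP 2, the 11th in input 1 and the 17th in input 2. NEAT1 was 8th, 33rd, 38th and 19th. By number of peaks MALAT1 was 1711th, 240th, 202nd and 6th, and NEAT1 was 665th, 97th, 49th and 10th. The gap between the ranks was thus widest in eCLIP 1, the longest list, though ranks in lists of different lengths show no change. Per kb of its span MALAT1 had 1414 reads in eCLIP 1, 81.8 in eCLIP 2, 60.3 in input 1 and 44.6 in input 2. NEAT1 had 355.0 in eCLIP 1 and 10.9 to 18.0 in the others, below MALAT1 in every library.

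**Figure D1:**
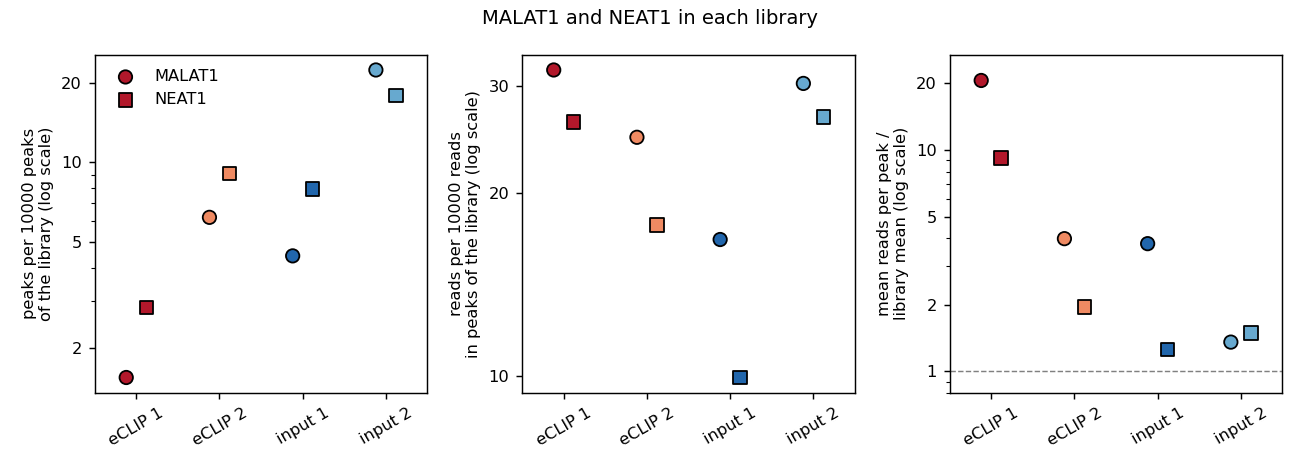
Share of peaks (left), share of reads in peaks (middle) and mean reads per peak divided by the library mean (right) for MALAT1 (circles) and NEAT1 (squares), 1 point per library, log axes, with a dashed line at the library mean in the right panel. MALAT1 runs from 1.54 to 22.3 per 10000 peaks and from 16.8 to 31.9 per 10000 reads, and both eCLIP points lie above both inputs of the same gene in the right panel alone.

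Peaks of both RNAs held more reads in eCLIP than in the input when set against the library mean. A MALAT1 peak held a mean of 132.4 reads in eCLIP 1, 21.8 in eCLIP 2, 14.9 in input 1 and 12.4 in input 2. Divided by the mean of all peaks of the same library (6.42, 5.48, 3.95 and 9.11), this was 20.6 and 3.98 times in the eCLIP libraries against 3.78 and 1.36 times in the inputs. The groups did not overlap, although eCLIP 2 and input 1 were close. With peaks of p at most 0.001 alone they overlapped, eCLIP 2 at 1.73 and input 1 at 1.88. NEAT1 peaks held 59.2, 10.7, 4.96 and 13.6 reads, or 9.22 and 1.95 times the library mean in the eCLIP libraries against 1.26 and 1.49 times. Without division by the library mean the NEAT1 groups overlapped. Among the 3130 genes with a peak in every library, 15.5% had both eCLIP values above both inputs and 7.35% had both below. The log2 difference was 2.00 (SE 1.46) for MALAT1 and 1.63 (SE 1.25) for NEAT1, against a median of 0.43 over the genes. limma called 0 of these genes in either direction, with 38 higher and 7 lower at an unadjusted p under 0.05. eCLIP 1 decided much of the size: without it the differences were 0.81 for MALAT1 and 0.51 for NEAT1. In the lists of 11204 peaks they were 0.32 and -0.03, so the sign for NEAT1 turned. Both RNAs then had overlapping groups, and 4.21% of 641 genes had both eCLIP values above both inputs and 13.3% both below.

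In both eCLIP libraries few genes had as high a weakest peak as these RNAs, and in input 1 few had one as high as MALAT1. The weakest peak in eCLIP 1 had 46 reads for MALAT1 and 25 for NEAT1. There 92.4% of the 5794 genes with at least 20 peaks had one at the minimum of 3 reads. Only 6 of those genes, MALAT1 among them, had a weakest peak of 46 reads or more. The weakest MALAT1 peak had 9 reads in eCLIP 2, 8 in input 1 and 5 in input 2, and the weakest NEAT1 peak had 4, 3 and 3. Of 420 genes in eCLIP 2, 4 reached 9 reads, MALAT1 among them, and 9 reached 4 reads, NEAT1 among them. Of 511 genes in input 1, 2 reached 8 reads, MALAT1 among them. In the inputs NEAT1 was thus at the minimum, as were 99.6% of 511 genes in input 1 and 72.7% of 11 in input 2, where 3 of the 11, MALAT1 included, reached 5 reads. Set against its own weakest peak, the median MALAT1 peak was 2.32 times as high in eCLIP 1, 2.28 in eCLIP 2, 1.56 in input 1 and 2.00 in input 2. For NEAT1 the same ratio was 2.14, 2.00, 1.67 and 2.67, and the groups overlapped. The part of this lower limit in the reads per peak was not tested.

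The peaks of both RNAs were also stronger than most of their list by the authors' p-value. A p of at most 0.001 was reached by 74 of 74 MALAT1 peaks in eCLIP 1, 26 of 26 in eCLIP 2, 24 of 28 in input 1 and 19 of 25 in input 2. For whole libraries the shares were 23.3%, 21.9%, 12.6% and 28.7%. NEAT1 reached it in 136 of 136, 19 of 38, 9 of 50 and 11 of 20 peaks, so its input 1 peaks were nearest to their library. Median widths were 29, 34, 31 and 29 bases for MALAT1 and 31, 28, 33 and 41 bases for NEAT1 in the same order. The MALAT1 peaks covered 33.8% of the span in eCLIP 1, 13.0% in eCLIP 2, 13.6% in input 1 and 13.3% in input 2, and the NEAT1 peaks covered 20.5%, 5.06%, 7.35% and 4.93%.

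Along MALAT1 the eCLIP peaks lay further towards the 3′ end than the input peaks. The mean position of a peak, as a percent of the span from its 5′ end, was 59.7 in eCLIP 1, 65.5 in eCLIP 2, 51.7 in input 1 and 52.1 in input 2. The groups did not overlap, and eCLIP minus input was 10.7 percentage points (SE 7.6). Few eCLIP peaks lay near the 5′ end. With the span cut into 10 parts of equal length, a split chosen after the data were seen, the first 2 parts had 1 of 74 peaks in eCLIP 1 (1.35%, Wilson 95% interval 0.239 to 7.27) and 0 of 26 in eCLIP 2 (0 to 12.9). The inputs held 4 of 28 (14.3%, 5.70 to 31.5) and 3 of 25 (12%, 4.17 to 30.0) there. The 1 eCLIP 1 peak, at 65266524 to 65266554 with 92 reads, was the first of the gene, and input 2 listed a peak of 7 reads over it. A site at 65267494 to 65267531 had peaks in both inputs, with 9 and 7 reads, and none in either eCLIP library. It was the only MALAT1 site of that kind. The interval of each eCLIP library overlapped those of both inputs. Over the peaks of the 713 genes with at least 3 peaks in every library and a span of at least 5 kb, the first 2 parts held 28.4% and 29.1% in eCLIP and 24.0% and 26.0% in the inputs. MALAT1 thus lay below these genes in all 4 libraries, and they were higher in eCLIP where it was lower. By reads the sixth part of MALAT1 also held the libraries apart, with 18.1% in eCLIP 1, 16.0% in eCLIP 2, 5.98% in input 1 and 5.18% in input 2. This part was picked from the 10 after the values were seen. It held 12, 3, 1 and 2 peaks in the same order, so the input values rest on few peaks.

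**Figure D2:**
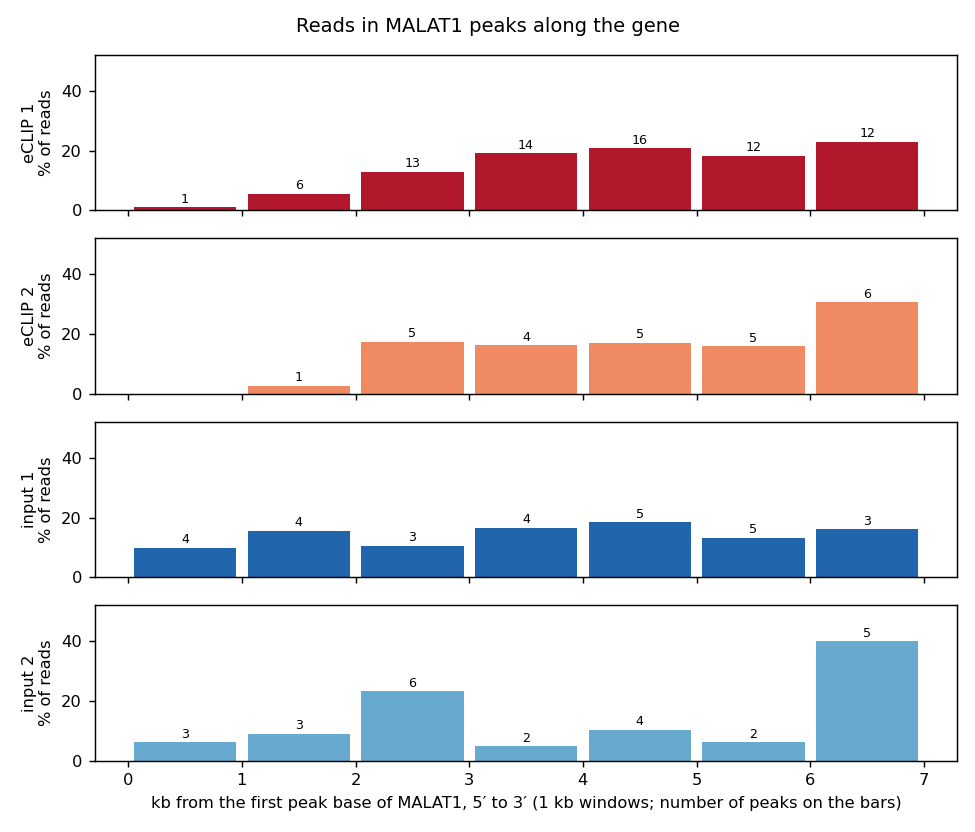
Percent of the reads in MALAT1 peaks by 1 kb window from the first peak base (5′ to 3′, the last window is shorter), 1 panel per library, with the number of peaks on each bar. The first window holds 0.94% of the reads in eCLIP 1 and none in eCLIP 2, against 9.81% in input 1 and 6.15% in input 2, and the last window holds 22.8%, 30.7%, 16.0% and 40.1%.

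The 3′ part of MALAT1 was occupied in all libraries. The last 2 parts held 21.6% and 30.8% of the peaks in eCLIP and 21.4% and 20% in the inputs. By reads the shares were 31.1% and 37.4% against 24.9% and 40.1%, so input 2 was the highest. With each peak weighted by its reads, the mean position was 64.9 and 67.6 in eCLIP against 54.5 and 63.1, a difference of 7.43 percentage points (SE 7.49).

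Peaks on NEAT1 lay mostly in the outer parts of the RNA in 3 of the 4 libraries. The first 2 of the 10 parts held 50 of 136 peaks in eCLIP 1 (36.8%) and 10 of 38 in eCLIP 2 (26.3%), and the last 2 held 43 (31.6%) and 12 (31.6%). The 6 parts between held 31.6% (24.4 to 39.8) and 42.1% (27.9 to 57.8). Over the peaks of the same 713 genes the middle held 57.0% and 55.5% in the same libraries. Input 2 showed the same shape, with 5 of 20 peaks (25.0%, 11.2 to 46.9) in the middle. In input 1 the middle held 25 of 50 (50.0%, 36.6 to 63.4), and the groups overlapped. The fifth part was the emptiest in eCLIP 1, with 1 peak of 29 reads.

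On average the eCLIP peaks of NEAT1 also lay further to the 3′ side, by a narrow margin. The mean position was 49.8 in eCLIP 1 and 54.2 in eCLIP 2 against 42.4 in input 1 and 49.7 in input 2, a difference of 5.97 percentage points (SE 7.81). eCLIP 1 and input 2 were almost level, and in the lists of 11204 peaks the groups overlapped, eCLIP 1 at 47.6 and input 2 at 49.7. Weighted by reads, the values were 47.4 and 54.6 against 40.1 and 36.6, a difference of 12.7 percentage points (SE 7.4), and the groups were further apart. The first part held 50.4% of the NEAT1 reads in input 2, against 27.3% in eCLIP 1, 14.3% in eCLIP 2 and 18.1% in input 1. The ninth part held 31.9% of the reads in eCLIP 2, 16.6% in eCLIP 1, 6.45% in input 1 and 18.8% in input 2. Input 2 was thus heaviest at the 5′ end and eCLIP 2 near the 3′ end, while in the ninth part the groups overlapped.

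**Figure D3:**
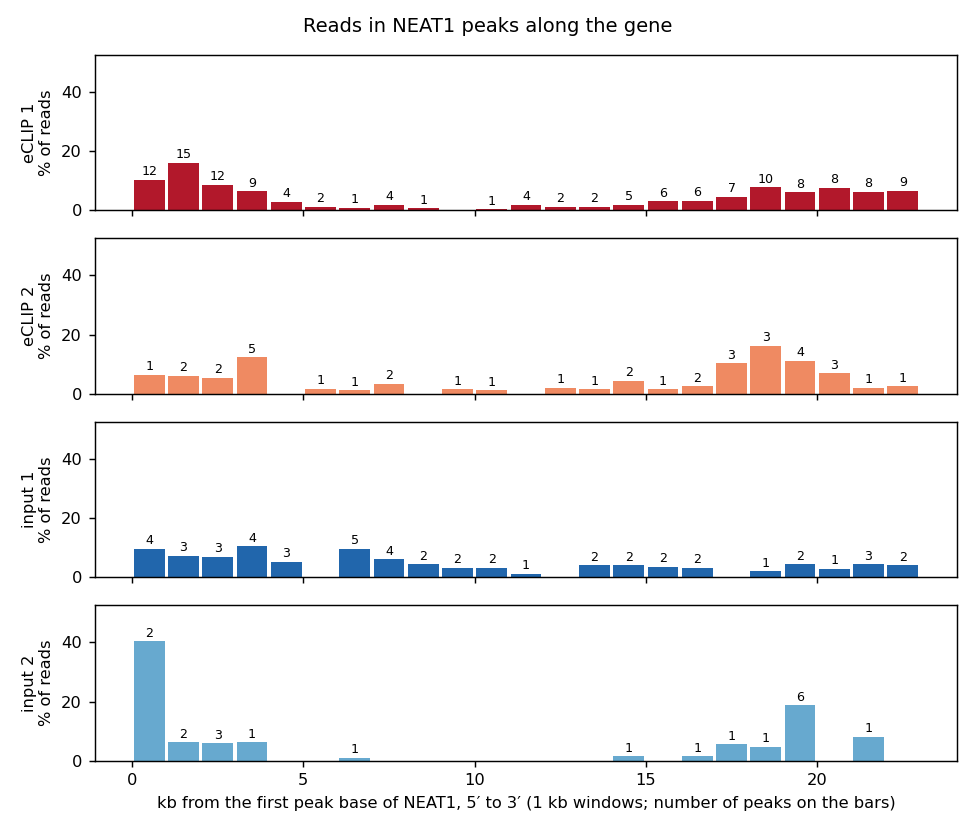
Percent of the reads in NEAT1 peaks by 1 kb window from the first peak base (5′ to 3′, the last window is shorter), 1 panel per library, with the number of peaks on each bar. The first 2 and last 2 of 10 equal parts hold most reads in each library. The middle 6 parts hold 22.7% of the reads in eCLIP 1, 31.2% in eCLIP 2, 44.4% in input 1 and 14.3% in input 2. The last windows of eCLIP 2 hold 1.97% and 2.46%.

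Over the 713 genes the median difference in mean position was -2.07 percentage points, towards the 5′ end in eCLIP. MALAT1 and NEAT1 stood on the other side of it, as the difference was positive in 303 genes (42.5%). At or above the MALAT1 value lay 74 genes (10.4%), MALAT1 included. At or above the NEAT1 value lay 140 genes (19.6%), NEAT1 included. Both eCLIP means lay above both inputs in 11.8% of the genes and below both in 27.9%, and by reads the shares were 13.5% and 29.3%. limma called 0 of the 713 genes in either direction, with 9 higher and 43 lower at an unadjusted p under 0.05. With 2 libraries a group, the smallest two-sided p of an exact permutation test is 0.33, and none was run. Without eCLIP 1 the differences were 13.6 for MALAT1 and 8.18 for NEAT1. Without input 1 the value for NEAT1 was 2.30.

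**Figure D4:**
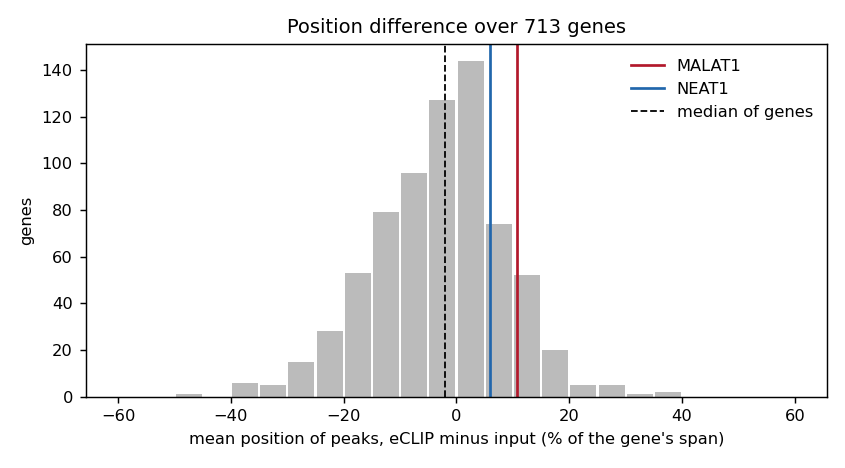
Number of genes (vertical axis) by the difference in mean peak position, eCLIP minus input, as a percent of each gene's span, with lines at MALAT1, NEAT1 and the median of the 713 genes. MALAT1 at 10.7 and NEAT1 at 5.97 lie to the right of the median of -2.07, inside the spread of the other genes.

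Peaks that shared at least 1 base were joined over the libraries into sites, which gave 67 sites in MALAT1 and 160 in NEAT1. On MALAT1 every one of the 24 sites of eCLIP 2 was also a site of eCLIP 1. Of these 24, 17 had a peak in at least 1 input, 7 had a peak in all 4 libraries and 7 had none in either input. On NEAT1, 30 of the 36 eCLIP 2 sites were found in eCLIP 1. Of these 30, 13 had an input peak, 1 had a peak in all 4 libraries and 17 had none in either input. Over all genes, with no floor on reads, 3.55% of eCLIP 2 peaks met an input 1 peak and 5.21% an input 2 peak. Most eCLIP 2 peaks of all genes thus lacked an input peak too. These are shares of peaks and not of sites. Sites with input peaks but no eCLIP peak numbered 13 on MALAT1 and 28 on NEAT1, and 1 on each RNA was found in both inputs. The count of 7 MALAT1 sites without input rested on both inputs: it was 12 without input 1 and 14 without input 2. The count for NEAT1 was 22 and 25. Joining peaks up to 20 bases apart lowered the counts to 4 and 12.

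**Figure D5:**
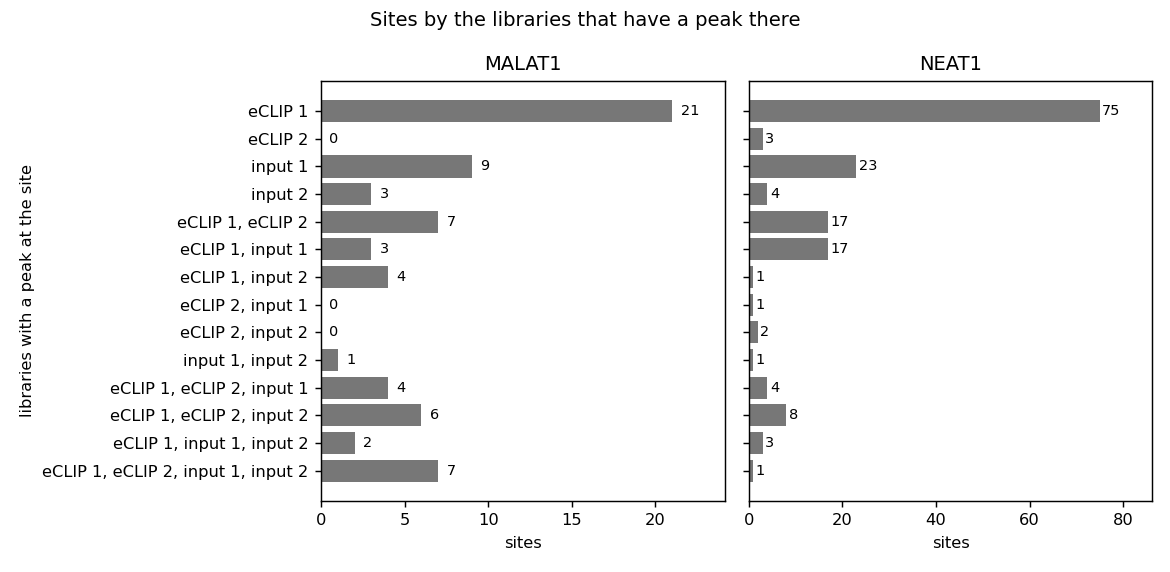
Number of sites of MALAT1 (left) and NEAT1 (right) by the set of libraries that have a peak there. Sites of eCLIP 1 alone are the most common on both RNAs (21 and 75), and sites of both eCLIP libraries without input number 7 and 17.

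By peaks, 100% of the 26 MALAT1 peaks of eCLIP 2 (Wilson 95% interval 87.1 to 100) and 84.2% of the 38 NEAT1 peaks (69.6 to 92.6) overlapped a peak of eCLIP 1. Among peaks of all other genes with at least 9 reads, the lowest of MALAT1 in eCLIP 2, 49.0% did. Among those with at least 4 reads, the lowest of NEAT1, 38.1% did. The MALAT1 peaks of eCLIP 2 also met input peaks often, in 42.3% of cases for input 1 and 53.8% for input 2, where other genes' peaks of at least 9 reads gave 14.1% and 25.6%. For NEAT1 the shares were 13.2% and 26.3%, against 5.29% and 8.76%. Both RNAs thus had higher shares than other genes' peaks in all 3 pairings of eCLIP 2, and input peaks often met eCLIP 1 as well. With floors set in the same way, 76% of MALAT1 and 65% of NEAT1 peaks of input 2 met eCLIP 1, against 35.9% and 25.1%. For input 1 the shares were 64.3% (45.8 to 79.3) and 46%, against 59.2% and 12.8%. Between the inputs the MALAT1 share was not higher, at 40% of input 2 peaks against 42.4% for other genes' peaks of at least 5 reads. For NEAT1 it was 25% (11.2 to 46.9) against 18.4%. The floors match the lowest reads alone, and the median eCLIP 2 peak held 20.5 reads on MALAT1 and 8 on NEAT1. Peaks of eCLIP 1 covered 33.8% of the MALAT1 span and 20.5% of the NEAT1 span. The part of this density in the overlaps was not tested. In the opposite direction of the eCLIP pair, 51.4% of the MALAT1 peaks and 25.7% of the NEAT1 peaks of eCLIP 1 overlapped one of eCLIP 2. Over all genes 2.96% did, but with no floor on reads. The weakest peaks of eCLIP 1 had 46 reads on MALAT1 and 25 on NEAT1, against a median of 4 over its whole list.

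The strongest site of MALAT1 lay near its 3′ end, at 65273134 to 65273451, where 318 bases held 990 reads in eCLIP 1, 61 in eCLIP 2, 33 in input 1 and 56 in input 2. The next, at 65272649 to 65272719, held 579, 38, 34 and 16 reads. A site at 65270118 to 65270181 held 434 and 33 reads in eCLIP and 25 in input 1, with no peak in input 2. These and the site at 65269055 to 65269122, with 422, 30, 18 and 17 reads, all had a peak in at least 1 input. So did 17 of the 24 MALAT1 sites of both eCLIP libraries. A site at 65270495 to 65270577 was the exception among the 5 deepest, with 374 and 36 reads in eCLIP and no input peak. By input reads, the site at 65271145 to 65271252 also stood high, with 46 and 8 reads, where eCLIP held 351 and 20. The site at 65268497 to 65268529 had a peak in each library too, with 200, 15, 11 and 7 reads. Of the MALAT1 sites without input, the next in reads after 65270495, chosen after the values were seen, were at 65272242 to 65272315 (372 and 23 reads) and 65272781 to 65272851 (298 and 22). All 7 began between 3.11 and 6.26 kb from the first peak base, and none lay in the first 2 parts.

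On NEAT1 the deepest site common to both eCLIP libraries was its first, at 65190270 to 65190490, with 202 reads in eCLIP 1 and 26 in eCLIP 2. Input 2 held 58 reads there in 1 peak, and input 1 had none. The site just after it, at 65190566 to 65190747, held 52 reads in input 2, 4 in input 1 and 146 in eCLIP 1, and had no eCLIP 2 peak. The 5′ end of NEAT1, which both isoforms carry, was thus the most heavily read part in input 2. The next eCLIP sites lay at 65208363 to 65208471 (185 and 35 reads, with 13 in input 2) and at 65192872 to 65192964 (200 and 15). The latter was the only NEAT1 site in all 4 libraries, with 9 and 6 reads in the inputs. Sites at 65193783 to 65193916 (167 and 20 reads, 5 in input 1) and 65191266 to 65191340 (176 and 6 reads, 9 in input 2) completed the 5 deepest. A site at 65209380 to 65209427 had peaks in both inputs (6 and 8 reads) and in eCLIP 1 (42 reads).

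The NEAT1 sites of both eCLIP libraries that had no input peak lay mostly away from the 5′ end. Of these 17, 1 lay in the first 2 parts, 9 in the middle 6 and 7 in the last 2. The 13 sites with an input peak lay there in 7, 2 and 4 cases. The sites with an input peak also held more reads, with a median of 147 in eCLIP 1 and 15 in eCLIP 2. The sites without input held 54 and 8. Reads are summed over a site, and the median width was 91 bases with input and 36 without. The part of width in this difference was not tested. The deepest site without input, chosen after the values were seen, was at 65208534 to 65208607, with 147 and 23 reads. On MALAT1 the reads did not separate these classes: the medians were 224 and 22 reads without input and 213 and 22 with it. The median widths there were 58 bases without input and 64 with it.

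The highest points of the eCLIP peaks were about as close together as over all genes. Where an eCLIP 2 peak of MALAT1 overlapped one of eCLIP 1, the positions that the lists give inside the peaks were a median of 5 bases apart, and 14 of 26 lay within 5 bases. For NEAT1 the median was 4 bases, and 20 of 32 lay within 5. Over all genes the median was 5 bases and 53.3% lay within 5. Against eCLIP 1 the input peaks of NEAT1 were further off, at medians of 19 bases for input 1 (5 of 23 within 5 bases) and 15 for input 2 (5 of 13). Over all genes 34.0% and 45.0% of input peaks lay that close. On MALAT1 the input peaks lay at medians of 4.5 and 4 bases from eCLIP 1 (10 of 18 and 10 of 19 within 5). Against eCLIP 2 the picture was different, with medians of 9 and 5 bases on MALAT1 (2 of 11 and 7 of 13) and 9 and 7 on NEAT1 (0 of 5 and 3 of 9), so the contrast between the RNAs depended on the eCLIP library used.

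Sites deep in eCLIP 1 tended to be deep in eCLIP 2. Across the sites that both libraries held, the reads had a Spearman rho of 0.74 on MALAT1 (24 sites) and 0.65 on NEAT1 (30 sites). The points share a gene, a library and the width of the site, and the sites are not replicates. On MALAT1 the rho was 0.69 for eCLIP 1 with input 1 (16 sites), 0.30 with input 2 (19 sites) and 0.84 for eCLIP 2 with input 2 (13 sites), so the eCLIP pair was not the highest. On NEAT1 it was 0.30 for eCLIP 1 with input 1 (25 sites), 0.46 with input 2 (13 sites) and 0.23 for eCLIP 2 with input 2 (11 sites).

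The genes with the pattern most like MALAT1, by the Euclidean distance between the 4 log2 peak shares among the 8914 genes, were ENSG00000260548.1 at 0.69 and ENSG00000105220.9 at 0.82. Those libraries listed 77, 42, 31 and 22 peaks in the former and 107, 35, 24 and 17 in the latter. NEAT1 lay at 1.21 from MALAT1, with 6 genes nearer. The genes most like NEAT1 were ENSG00000147180.12 at 0.48, with 110, 48, 58 and 18 peaks, and ENSG00000105221.12 at 0.90, with 124, 54, 36 and 13. The files pair no names with identifiers, and 0 of the 17764 matched the reference table of gene names, so lists of paraspeckle protein genes and of other long non-coding RNA genes were not analysed here.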

How the data were processed

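Per the submitters' processing notes, the tools were cutadapt, STAR and SAMtools and the build was hg19. Tool versions, the peak-calling program and the annotation behind the identifiers: not given in the sources used here. Each library has its own peak list from the authors, so no replicates were pooled in a list. The deposited p-value of each peak is at most 0.05. The deposited score is the whole part of 10 times its negative log10, and was not used further. The deposited peak name ends in a number of at least 3, read here as reads, which the files do not state. The position inside each peak was used as deposited.

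MALAT1 and NEAT1, the lists and the rules were chosen with earlier results of these data known. Peak shares (log2 of peaks per 10000 + 0.5, genes with at least 10 peaks), log2 mean reads per peak over the library mean, and mean position were fitted over all genes with limma 3.58.1 (R 4.3.3, lmFit and eBayes, group only, 4 libraries). The code of the fit was tested on simulated data. Simulated shares had counting noise alone and simulated reads per peak a small fixed spread. That test therefore does not cover the spread between the libraries of a group in these measures. Peak numbers were not modelled as counts. Named sites were the 5 deepest in eCLIP among those in both eCLIP libraries, the 3 deepest in input among those in both inputs, and up to 5 in all 4 libraries. Named genes were the 2 nearest in pattern to each RNA. Overlaps required 1 shared base on 1 strand (Python 3.11.15, bedtools 2.31.1). The split into 2, 6 and 2 of 10 equal parts was chosen after the data were seen. Alternatives were a p limit of 0.001, merged touching peaks, equal lists, other pseudocounts, filters and weights, a replicate block and leaving out each library.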

Additional observations from a re-analysis of the deposited data

How the results depend on the processing

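The 3′ position of eCLIP peaks was the value that kept its sign most widely: in all 10 alternatives run it stayed between 7.43 and 13.6 percentage points for MALAT1 and between 2.30 and 18.9 for NEAT1. It moved by more than 1 SD for MALAT1 with peaks weighted by reads (7.43) and for NEAT1 at a p limit of 0.001 (18.9), in lists of equal length (12.6) and weighted by reads (12.7). The log2 peak share turned from -1.52 to 0.77 for MALAT1 and from -1.14 to 1.61 for NEAT1 in lists of equal length, and to 0.31 and 0.39 as a share of reads. It kept its sign in the other 10 alternatives, with the value for NEAT1 at -0.31 at a p limit of 0.001. The log2 reads per peak became 0.32 for MALAT1 and -0.033 for NEAT1 in lists of equal length, and the cause was not tested. Leaving out each library in turn gave peak shares from -2.62 to -0.42 (MALAT1) and from -1.90 to -0.38 (NEAT1), reads per peak from 0.81 to 3.19 and from 0.51 to 2.75, and positions from 7.77 to 13.6 and from 2.30 to 9.64. A lone library is assumed there to vary like the other group. Sites of both eCLIP libraries without input numbered 4 on MALAT1 with peaks up to 20 bases apart joined, 9 on NEAT1 in lists of equal length, and 12 to 14 (MALAT1) and 22 to 25 (NEAT1) with 1 input left out, an alternative chosen after the data were seen.

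Genes called by limma, 0 in each fit, numbered 10 for reads per peak in lists of equal length. With 1 library left out they ranged from 0 to 695 for peak share, where 695 came without eCLIP 2, from 12 to 1504 for reads per peak, where 1504 came without input 1, and from 0 to 74 for position, where 74 came without input 2. With the replicate block, the numbers of calls were 4, 27 and 0, and the differences of both RNAs were unchanged at -1.52 and -1.14, 2.00 and 1.63, and 10.7 and 5.97. The labels do not say that a number pairs libraries, and deviations of same-numbered libraries correlated at 0.40 over genes for peak share, 0.03 for reads per peak and 0.23 for position. With unknown depth and as few as 20 peaks in a list, small differences in position could not be resolved.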

Other observations

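In eCLIP 1, 1 peak inside the NEAT1 span was listed under another identifier, ENSG00000207727.1, at 65211975 to 65212003 with 17 reads. It overlapped no NEAT1 peak of that library and lay below the weakest NEAT1 peak there, which had 25 reads. The peak numbers of NEAT1 in input 1 ran to 71 while 50 peaks were listed. For both RNAs in the other libraries, and for MALAT1 in input 1, as many peaks were listed as numbered, for example 136 of 136 for NEAT1 in eCLIP 1.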
